A study of Mus musculus with 8 samples.

Results

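Transcripts of the contractile apparatus of striated muscle were followed in paraxial tissue and spinal neural tube of E10.5 mouse embryos, in wild-type embryos and in embryos with conditional loss of Geminin. The set held 39 genes, taken by name from a fixed list of sarcomere, muscle membrane and muscle energy genes. All 39 were on the array, as 54 of its 55664 non-control probes. They were 39 of the 36511 genes or other named targets measured. The list was not drawn up by a threshold on the values, but it was chosen with earlier results of these arrays known. The study separated the neural tube and the paraxial tissue beside it by laser capture microdissection and hybridised each RNA to a 1-colour array, with Cy5 as the dye. There were 8 arrays in 4 groups of 2. They came from 2 wild-type embryos and 2 mutants, both tissues being taken from every embryo. All embryos were labelled C57BL/6, the wild-type groups carried the genotype label wild type, and the mutant groups carried fl/fl; cre/o. A Cre driver and the deleted stretch of Geminin were not named in the labels used here, so the cells in which the gene was lost could not be stated. Because the replicate is the embryo, each genotype rested on 2 animals.

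The sarcomere is the repeating contractile unit of striated muscle, in which myosin thick filaments pull on actin thin filaments that are anchored at the Z disc. Calcium released through the ryanodine receptor binds troponin C and lets troponin I, troponin T and tropomyosin move on the actin, and nerve input reaches the fibre through the acetylcholine receptor. In the embryo at this stage the first skeletal muscle of the trunk, the myotome, forms beside the neural tube from the somites and expresses embryonic, slow and cardiac forms of these proteins together. The neural tube itself is not a muscle tissue.

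Signals are given as scaled signal, the log2 of the scanner's processed signal after setting the 75th percentile of every array to one level. Pairs of values always give replicate 1 and then replicate 2. Between 71.5% and 77.9% of probes per array were well above background, and no spot was saturated. A difference is on the log2 scale, with its standard error (SE), and a gene was called where the adjusted p of a linear model fitted with limma over 28939 genes was under 0.05. Geminin itself (Gmnn) stood at 12.20 and 11.88 in wild-type paraxial tissue and at 11.42 and 11.39 in mutant paraxial tissue. In the neural tube it stood at 12.35 and 12.24 in wild type and at 12.11 and 11.80 in mutants. The mutant arrays were lower in both tissues, by 0.63 in paraxial tissue (log2 -0.63, adjusted p = 0.996) and 0.35 in neural tube (log2 -0.35, adjusted p = 0.921), and neither difference was called. Whether the probe lies in the deleted stretch is not given, so this checks the labels only weakly. The tissue labels were borne by the markers in level: all 8 neural progenitor markers lay higher in neural tube and all 7 sclerotome markers lay higher in paraxial tissue, in both genotypes. Called in these directions were 4 of 8 neural progenitor and 3 of 7 sclerotome markers in wild type, and 8 and 3 in mutants, where 2.45% and 5.84% of all genes were called in either direction.

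In wild type, nearly all sarcomere genes lay higher in paraxial tissue than in neural tube. In wild type, 29 of the 38 genes that passed the filter on dim probes were called lower in neural tube and 0 were called higher, where 1.68% of all genes were called lower, 0.771% higher and 2.45% in either direction. The median difference over all 39 was -2.93, against 0.0047 over all genes. Myl7 apart, 5 genes were not well above background in wild-type neural tube. With these set at the smallest difference their signal allowed, the median was -2.31. Among genes above background on all wild-type arrays the largest tissue differences were those of cardiac troponin T (Tnnt2), -5.26 or 38.3-fold, the myosin light chain Myl1, -4.73 or 26.5-fold, and skeletal actin (Acta1), -4.66 or 25.3-fold. Of the 38 genes, 9 passed the filter only through paraxial tissue, so that they had to lie higher there; of the other 29, 21 were called lower in wild type, 15 in mutants and 24 over the mean of genotypes. On 35 of 39 genes both wild-type neural tube arrays lay below both wild-type paraxial arrays, where 16.9% of all genes did so. Without the 9 genes of fixed direction and the untested Myl7 it was 26 of 29. In 1 wild-type embryo 36 of 39 genes lay lower in neural tube, with a median of -2.43, and in the other 37 did, with a median of -3.43.

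In mutant embryos the genes lay the same way, and 18 of 38 genes were called lower in neural tube and 0 higher, where 3.16% of all genes were called lower, 2.67% higher and 5.84% in either direction. The median difference over the 39 was -1.43, and on 31 of 39 genes both neural tube arrays lay below both paraxial arrays, where 19.6% of all genes did so. Without the 9 genes that passed the filter only through paraxial tissue and the untested Myl7, that held for 24 of 29. All 18 called genes were among the 29 called in wild type, and the other 11 of those were not called in mutants. The tissue difference was smaller in mutants for 36 of 39 genes, but the test of that change between the genotypes called 0 of 38 (0% of all genes). Over the mean of both genotypes, 33 of 38 genes were called lower and 0 higher, where 6.01% of all genes were called lower, 5.94% higher and 11.9% in either direction. The 5 that were not called were cardiac Myh6, Tnni2, Trim55, Unc45b and Smyd1. The calls rested on few animals. Without wild-type embryo 1 the wild-type count was 7 and without embryo 2 it was 1, and without either mutant embryo the mutant count was 0. It was also 0 without mutant neural tube 1, mutant neural tube 2 or mutant paraxial 2, and 4 without mutant paraxial 1. With no term for the embryo, 0 genes were called in each genotype and 23 over their mean, and when each embryo had its own fixed term 10, 10 and 28. Over the mean of genotypes, 21 to 35 genes were called whichever array or embryo was left out.

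**Figure D1:**
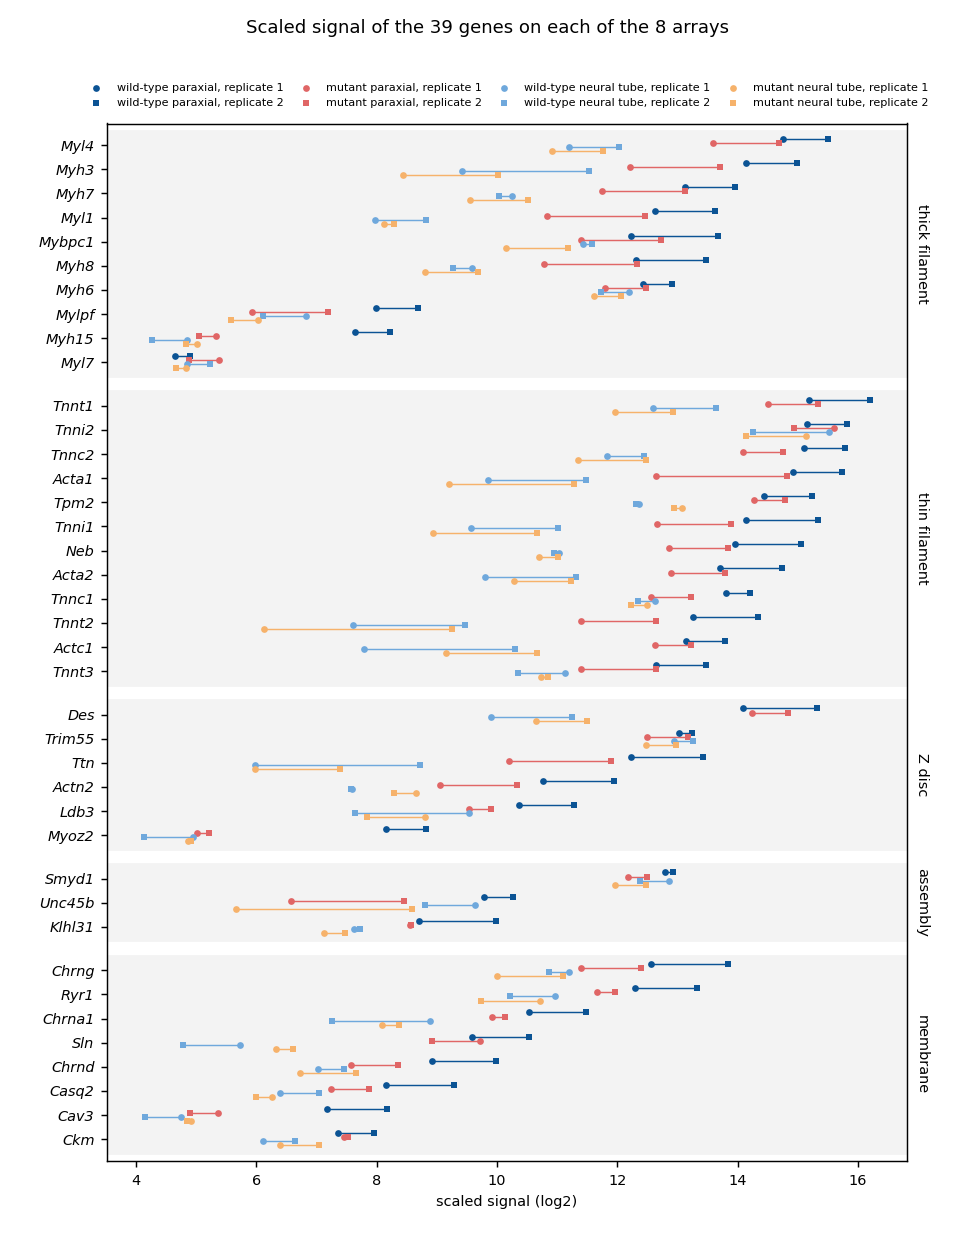
Scaled signal (log2, x axis) of each of the 39 genes (rows, grouped by role) on the 8 arrays; circles are replicate 1, squares replicate 2, and a line joins the pair of a group. Most genes run from neural tube at the left to wild-type paraxial tissue at the right, with mutant paraxial tissue between, and replicate 2 is the higher of the wild-type paraxial pair for all 39.

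**Figure D2:**
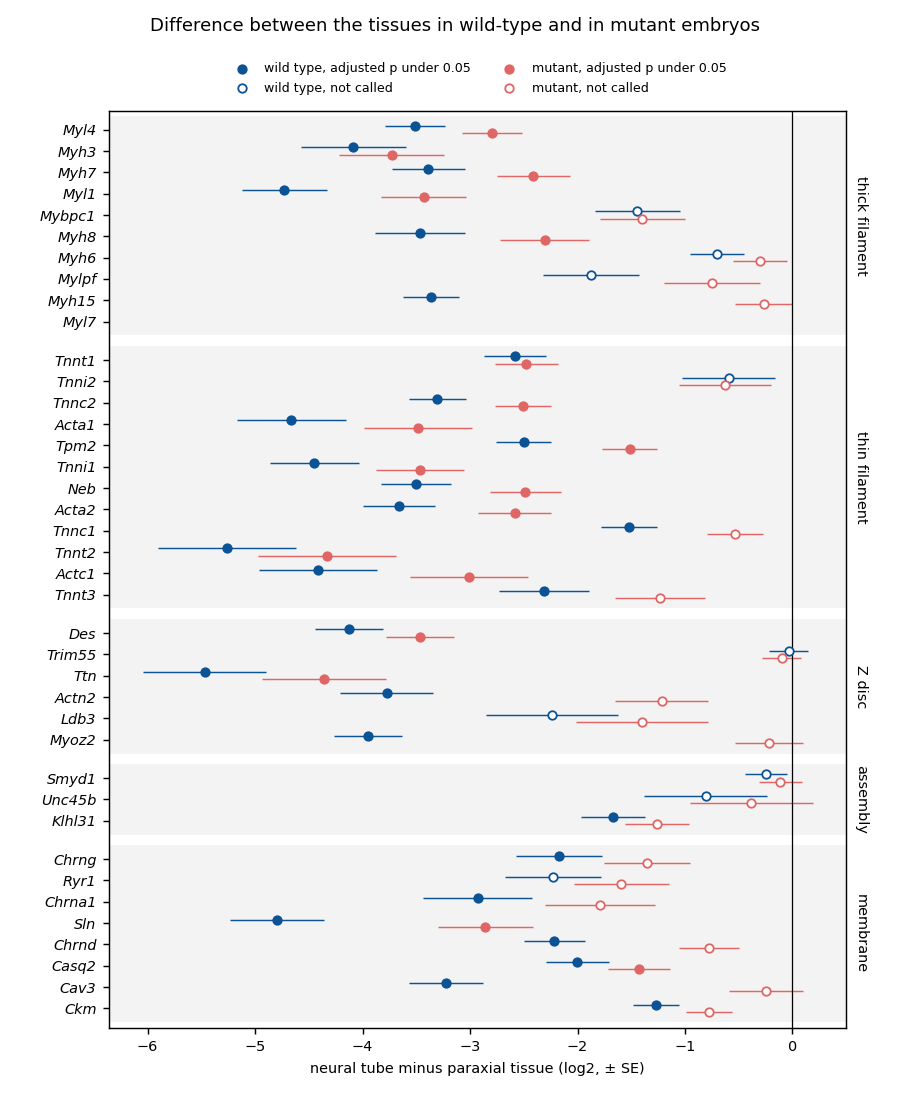
Neural tube minus paraxial tissue (log2, x axis, bars are ± SE) for the 38 tested genes in wild type (blue) and in mutants (red); filled points had an adjusted p under 0.05. Filled points number 29 in wild type and 18 in mutants, all of them left of 0; Myl7 was not tested and has no point.

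The comparison of mutant with wild-type paraxial tissue called no sarcomere gene, although nearly all of them lay lower in the mutants. Of the 39 genes 38 lay lower and 1, Myl7, lay higher; Myl7 was not above background on any array. The median difference was -1.09, against 0.03 over all genes tested. No adjusted p was under 0.05 for any member or for any of the 28939 genes (0% called), and 11 of the 38 tested members and 971 of all genes had an unadjusted p under 0.05. Of those 11, 5 (Myh15, Mylpf, Myoz2, Cav3 and Casq2) had passed the filter only through wild-type paraxial tissue, which fixed their direction; of the other 33 tested members 6 had such a p, and their median was -1.02. On 25 of 39 genes both mutant arrays lay below both wild-type arrays and on none above, where 14.7% of all genes lay wholly below and 22.6% wholly above; without the same 5 genes and the untested Myl7 it was 20 of 33. The 2 wild-type paraxial arrays also differed from each other: replicate 2 was the higher for all 39 genes, by 0.12 to 1.46 with a median of 0.91. For 11 of 39 genes that spread within wild type was larger than the difference between genotypes. Without wild-type paraxial replicate 1 the median difference was -1.52, and without replicate 2 it was -0.63; without mutant paraxial replicate 1 it was -0.69, and without replicate 2 it was -1.54. The median over the 39 genes of each gene's deviation from its own mean was 1.32 and 2.17 on the wild-type paraxial arrays, 0.31 and 0.92 on the mutant paraxial arrays, -0.94 and -1.02 in wild-type neural tube and -1.24 and -0.98 in mutant neural tube. The mutant paraxial arrays lay below both wild-type paraxial arrays and above all neural tube arrays.

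Arrays of the same replicate number shared a row of the slide, so the genotypes were also compared within each row. In row 1, 34 of 39 genes lay lower in mutant paraxial tissue, with a median of -1.09. In row 2, 39 of 39 did, with a median of -1.16. Lower in both rows were 34 of 39 genes, and 24.2% of all genes. The 34 include Myh15, Mylpf, Myoz2, Cav3 and Casq2, which passed the filter only through wild-type paraxial tissue, so their direction was fixed. In neural tube the rows differed: 29 of 39 genes lay lower in mutants in row 1 (median -0.38) and 19 in row 2 (median 0.04). Both were lower for 17 of 39, where 25.6% of all genes were.

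**Figure D3:**
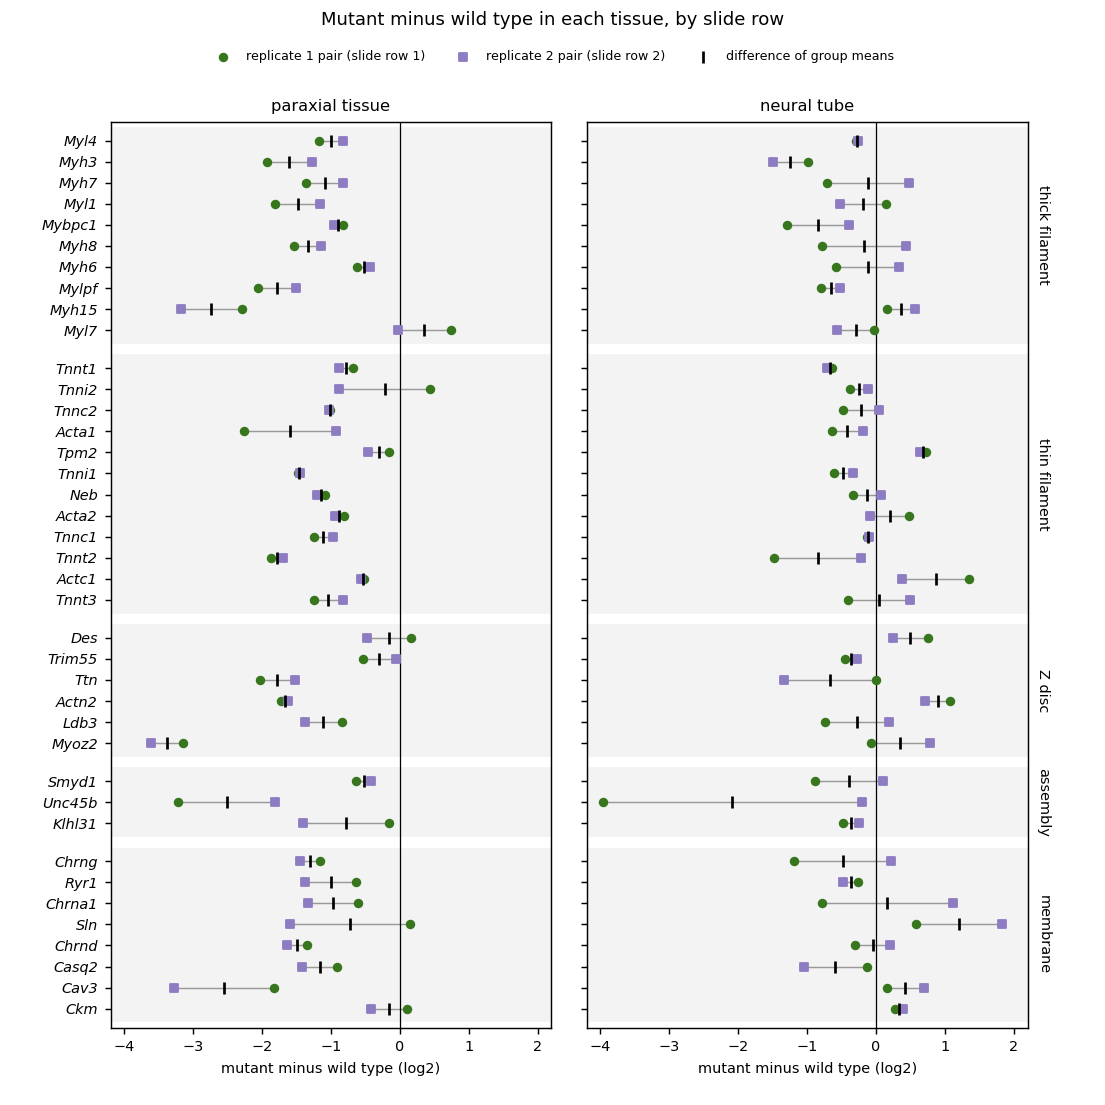
Mutant minus wild type (log2, x axis) for each of the 39 genes in paraxial tissue (left) and neural tube (right), for the replicate 1 pair (circles) and the replicate 2 pair (squares), with the difference of the group means as a tick. In paraxial tissue 34 genes have both points left of 0, and in neural tube 17 do. The 34 include 5 genes whose direction was fixed by the filter (Myh15, Mylpf, Myoz2, Cav3 and Casq2). No difference passed the test.

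Thick filament genes code for the myosin motor chains, their light chains and a myosin-binding protein, and 6 of the 9 tested were called lower in wild-type neural tube and 5 in mutant neural tube. For this and the following role groups, 1.68% of all genes were called lower in wild type, 3.16% in mutants and 6.01% over the mean. Of the 6, Myh15 passed the filter only through paraxial tissue, which fixed its direction. Myl4, an embryonic and atrial essential light chain, stood at 14.75 and 15.51 in wild-type paraxial tissue, 13.58 and 14.68 in mutant paraxial tissue, 11.20 and 12.03 in wild-type neural tube and 10.91 and 11.77 in mutant neural tube. Myh3, the embryonic myosin heavy chain, stood at 14.14 and 14.98 in wild-type paraxial tissue, 12.21 and 13.71 in mutant paraxial tissue, 9.43 and 11.53 in wild-type neural tube and 8.43 and 10.02 in mutant neural tube. Myh7, the slow and beta-cardiac heavy chain, stood at 13.12 and 13.95 in wild-type paraxial tissue, 11.75 and 13.13 in mutant paraxial tissue, 10.25 and 10.03 in wild-type neural tube and 9.55 and 10.51 in mutant neural tube. In all 3 both paraxial pairs lay above all neural tube values. The wild-type tissue difference was -3.51 (SE 0.28, adjusted p = 0.00716) for Myl4, -4.09 (SE 0.49, adjusted p = 0.015) for Myh3 and -3.39 (SE 0.34, adjusted p = 0.0103) for Myh7. In paraxial tissue both mutant arrays lay below both wild-type arrays for Myl4 and Myh3, and for Myh7 mutant replicate 2, at 13.13, fell just above wild-type replicate 1, at 13.12.

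Myl1, the fast skeletal essential light chain, stood at 12.63 and 13.62 in wild-type paraxial tissue, 10.83 and 12.46 in mutant paraxial tissue, 7.98 and 8.82 in wild-type neural tube and 8.12 and 8.29 in mutant neural tube. The groups of the 2 tissues did not overlap in either genotype, with -4.73 (SE 0.39, adjusted p = 0.00727) in wild type and -3.43 (SE 0.39, adjusted p = 0.0117) in mutants. Mylpf, the fast regulatory light chain, stood at 8.0 and 8.69 in wild-type paraxial tissue, 5.93 and 7.19 in mutant paraxial tissue, 6.83 and 6.11 in wild-type neural tube and 6.04 and 5.58 in mutant neural tube. It was well above background on 3 arrays, the 2 wild-type paraxial arrays and mutant paraxial replicate 2, and its tissue difference of at least 3.64-fold in wild type was not called (adjusted p = 0.0855). Between genotypes in paraxial tissue it differed by -1.78 (SE 0.71, adjusted p = 0.996), with the mutant pair wholly below the wild-type pair. Mylpf passed the filter only through wild-type paraxial tissue, so it had to lie higher there. Myh15, a myosin heavy chain known from the muscles of the eye, stood at 7.63 and 8.21 in wild-type paraxial tissue, 5.34 and 5.04 in mutant paraxial tissue, 4.85 and 4.27 in wild-type neural tube and 5.01 and 4.83 in mutant neural tube. It was above background on the 2 wild-type paraxial arrays alone, so the other groups give only a bound. Wild-type paraxial tissue was at least 2.72-fold above wild-type neural tube (adjusted p = 0.00716) and at least 1.87-fold above mutant paraxial tissue (adjusted p = 0.810). Here and elsewhere, an adjusted p beside a bound belongs to the full difference of the measured signals, and the bound itself was not tested. As Myh15 passed the filter only through wild-type paraxial tissue, it had to lie higher there.

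The probe of Myh15 is shown because it shares 24 bases in a row with the probe used for Myh3, the longest run shared by probes of any 2 members; the next longest was 13 bases, over 1413 probe pairs. Capitals mark the shared run; both probes are 60 bases, read from the array files, with positions in mm9.
Myh15, chr16:49196943-49197002, plus strand: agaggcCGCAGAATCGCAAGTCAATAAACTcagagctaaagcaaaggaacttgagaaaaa
Myh3, chr11:66915107-66915166, plus strand: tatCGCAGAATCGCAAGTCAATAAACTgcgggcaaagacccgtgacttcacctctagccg
How far Myh3 RNA adds to the Myh15 signal was not tested. Myh3 was well above background on all 8 arrays and Myh15 on 2.

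Of the other thick filament genes, Myh8, the perinatal heavy chain, was called lower in neural tube in both genotypes, at -3.46 in wild type and -2.31 in mutants. Mybpc1, the slow myosin-binding protein C, was called only over the mean of genotypes, at -1.42 (SE 0.28, adjusted p = 0.0204). Myh6, the alpha-cardiac heavy chain, was above background on every array, at 12.42 and 12.91 in wild-type paraxial tissue, 11.80 and 12.48 in mutant paraxial tissue, 12.19 and 11.73 in wild-type neural tube and 11.61 and 12.07 in mutant neural tube. Its tissue difference of -0.70 in wild type was not called (adjusted p = 0.209). Myl7, the atrial regulatory light chain, was not well above background on any of the 8 arrays, where its probe read between 4.65 and 5.39.

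Thin filament genes are the actins, the troponins, tropomyosin and nebulin, and 11 of 12 were called lower in wild-type neural tube, 9 in mutant neural tube and 11 over the mean of genotypes. Their median tissue difference was -3.40 in wild type and -2.50 in mutants. Tnnt1, slow troponin T, stood at 15.19 and 16.21 in wild-type paraxial tissue, 14.50 and 15.33 in mutant paraxial tissue, 12.59 and 13.64 in wild-type neural tube and 11.95 and 12.93 in mutant neural tube. Tnnc2, fast troponin C, stood at 15.10 and 15.78 in wild-type paraxial tissue, 14.09 and 14.76 in mutant paraxial tissue, 11.83 and 12.44 in wild-type neural tube and 11.35 and 12.48 in mutant neural tube. Both kept all paraxial values above all neural tube values, with wild-type differences of -2.58 (SE 0.29, adjusted p = 0.0132) and -3.30 (SE 0.26, adjusted p = 0.00716). Between genotypes in paraxial tissue, Tnnc2 differed by -1.02 (SE 0.42, adjusted p = 0.996) with no overlap, and Tnnt1 by -0.78 with mutant replicate 2 above wild-type replicate 1.

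Tnnc1, the slow and cardiac troponin C, stood at 13.80 and 14.20 in wild-type paraxial tissue, 12.56 and 13.23 in mutant paraxial tissue, 12.62 and 12.34 in wild-type neural tube and 12.49 and 12.23 in mutant neural tube. Tnni1, slow troponin I, stood at 14.14 and 15.33 in wild-type paraxial tissue, 12.66 and 13.88 in mutant paraxial tissue, 9.56 and 11.01 in wild-type neural tube and 8.94 and 10.67 in mutant neural tube. The neural tube signal of Tnnc1 was close to that of mutant paraxial tissue, and that of Tnni1 was far below it. Their wild-type tissue differences were -1.52 (SE 0.26, adjusted p = 0.0382) and -4.45 (SE 0.41, adjusted p = 0.00964). Only Tnni1 was called in mutants as well, at -3.47 (SE 0.41, adjusted p = 0.012); for Tnnc1 the mutant value was -0.54 (SE 0.26, adjusted p = 0.323). Both lay lower in mutant paraxial tissue without overlap, by -1.11 and -1.46.

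Tnni2, fast troponin I, was the thin filament gene that was called in neither genotype, at 15.15 and 15.81 in wild-type paraxial tissue, 15.59 and 14.93 in mutant paraxial tissue, 15.52 and 14.25 in wild-type neural tube and 15.14 and 14.13 in mutant neural tube. The 2 tissues overlapped in each genotype, and the tissue difference was -0.60 (SE 0.43, adjusted p = 0.526) in wild type and -0.63 (SE 0.43, adjusted p = 0.503) in mutants. Its neighbour Tnnt3, fast troponin T, which lies 68.2 kb away on chromosome 7, stood at 12.64 and 13.47 in wild-type paraxial tissue, 11.39 and 12.64 in mutant paraxial tissue, 11.14 and 10.35 in wild-type neural tube and 10.73 and 10.84 in mutant neural tube. It was called lower in wild-type neural tube, at -2.31 (SE 0.42, adjusted p = 0.0437). Nebulin (Neb), the giant protein along the thin filament, stood at 13.95 and 15.05 in wild-type paraxial tissue, 12.86 and 13.84 in mutant paraxial tissue, 11.04 and 10.95 in wild-type neural tube and 10.70 and 11.02 in mutant neural tube, and its wild-type tissue difference was -3.50 (SE 0.33, adjusted p = 0.0103).

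The actins and the tropomyosin Tpm2 were called in both genotypes. The skeletal actin Acta1 was 25.3-fold higher in wild-type paraxial tissue than in neural tube (-4.66, SE 0.50, adjusted p = 0.0116), the cardiac actin Actc1 21.3-fold (-4.41, SE 0.55, adjusted p = 0.0157) and the smooth muscle actin Acta2 12.7-fold (-3.66, SE 0.34, adjusted p = 0.00964). Cardiac troponin T (Tnnt2) ran from 14.34 on 1 wild-type paraxial array down to 6.13 on 1 mutant neural tube array, where it was not well above background. Tpm2, beta-tropomyosin, was called lower in neural tube in both genotypes, at -2.50 and -1.52. In neural tube it lay higher in both mutants (13.08 and 12.94) than in both wild types (12.36 and 12.31), a difference of 0.68 (SE 0.41, adjusted p = 0.921) that was not called.

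Z disc genes, with titin and desmin, anchor the filaments and tie neighbouring fibrils together, and 4 of 6 were called lower in wild-type neural tube and 2 in mutant neural tube. Of the 4, titin and Myoz2 passed the filter only through paraxial tissue, which fixed their direction, and titin is also among the 2. Desmin (Des), the muscle intermediate filament, stood at 14.08 and 15.32 in wild-type paraxial tissue, 14.24 and 14.84 in mutant paraxial tissue, 9.90 and 11.25 in wild-type neural tube and 10.64 and 11.50 in mutant neural tube. Titin (Ttn), the molecular spring between Z disc and thick filament, stood at 12.22 and 13.43 in wild-type paraxial tissue, 10.19 and 11.90 in mutant paraxial tissue, 5.99 and 8.72 in wild-type neural tube and 5.98 and 7.39 in mutant neural tube. Both were called lower in wild-type neural tube, Des at -4.13 (SE 0.32, adjusted p = 0.00716) and Ttn at -5.47 (SE 0.58, adjusted p = 0.011); Ttn was above background on 1 of 2 neural tube arrays of each genotype. The genotypes overlapped for Des in paraxial tissue (-0.16), whereas for Ttn the mutant pair lay wholly below the wild-type pair (-1.78, SE 0.91, adjusted p = 0.996). Trim55, a ubiquitin ligase of the sarcomere, stood at 13.03 and 13.23 in wild-type paraxial tissue, 12.49 and 13.17 in mutant paraxial tissue, 12.93 and 13.26 in wild-type neural tube and 12.48 and 12.98 in mutant neural tube, with a wild-type tissue difference of -0.04 (SE 0.18, adjusted p = 0.945).

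Actn2, the muscle alpha-actinin that cross-links actin at the Z disc, stood at 10.77 and 11.95 in wild-type paraxial tissue, 9.05 and 10.33 in mutant paraxial tissue, 7.59 and 7.58 in wild-type neural tube and 8.66 and 8.29 in mutant neural tube. It fell from paraxial tissue to neural tube in wild type (-3.78, SE 0.43, adjusted p = 0.0136), and the mutant difference was -1.21 (SE 0.43, adjusted p = 0.175). In mutants the paraxial values were below, and the neural tube values above, those of wild type. Myoz2, a calcineurin-binding Z disc protein known from slow and cardiac muscle, stood at 8.15 and 8.82 in wild-type paraxial tissue, 5.01 and 5.21 in mutant paraxial tissue, 4.95 and 4.13 in wild-type neural tube and 4.87 and 4.91 in mutant neural tube. As for Myh15, only the 2 wild-type paraxial arrays were above background, which is also how the gene passed the filter. Wild-type paraxial tissue was at least 4.02-fold above wild-type neural tube (adjusted p = 0.00716) and at least 2.77-fold above mutant paraxial tissue (adjusted p = 0.810). Its probe, placed at chr3:122709486-122716527, minus strand in mm9, spans 7042 bases of the genome and so crosses an intron. Of the 39 genes, 11 had a used probe that spanned more than 60 bases in this way. Ldb3, which binds alpha-actinin, was called only over the mean of genotypes (-1.82, SE 0.43, adjusted p = 0.0394).

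The assembly factors were Unc45b, Smyd1 and Klhl31, and 1 of the 3, Klhl31, was called lower in wild-type neural tube and 0 in mutants. Unc45b, the chaperone that folds myosin, stood at 9.79 and 10.26 in wild-type paraxial tissue, 6.57 and 8.45 in mutant paraxial tissue, 9.63 and 8.80 in wild-type neural tube and 5.67 and 8.59 in mutant neural tube. Smyd1, a muscle methyltransferase needed for thick filament assembly, stood at 12.80 and 12.92 in wild-type paraxial tissue, 12.17 and 12.50 in mutant paraxial tissue, 12.85 and 12.37 in wild-type neural tube and 11.96 and 12.48 in mutant neural tube. Klhl31, a kelch protein of skeletal muscle, stood at 8.70 and 9.98 in wild-type paraxial tissue, 8.55 and 8.57 in mutant paraxial tissue, 7.62 and 7.72 in wild-type neural tube and 7.13 and 7.47 in mutant neural tube. Klhl31 was called lower in wild-type neural tube (-1.67, SE 0.30, adjusted p = 0.0433), while Unc45b (-0.81, SE 0.57, adjusted p = 0.517) and Smyd1 (-0.25, SE 0.20, adjusted p = 0.569) were not. All 3 lay lower on both mutant paraxial arrays than on both wild-type ones. For Unc45b the difference was -2.51 (SE 0.91, adjusted p = 0.996) in paraxial tissue and -2.09 (SE 0.91, adjusted p = 0.921) in neural tube, with the lowest value of each tissue on mutant replicate 1, where the probe was not above background.

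Membrane, calcium, synapse and energy genes were called lower in wild-type neural tube for 7 of 8, in mutant neural tube for 2 of 8 and over the mean of genotypes for 8 of 8. Of all genes 1.68%, 3.16% and 6.01% were called lower in these comparisons. The 7 wild-type calls include Cav3, Sln, Casq2, Chrnd and Ckm, which passed the filter only through paraxial tissue, so their direction was fixed. The 2 mutant calls were Sln and Casq2. Chrng, the fetal gamma subunit of the muscle acetylcholine receptor, stood at 12.56 and 13.84 in wild-type paraxial tissue, 11.40 and 12.40 in mutant paraxial tissue, 11.19 and 10.87 in wild-type neural tube and 10.00 and 11.09 in mutant neural tube. Chrna1, its alpha subunit, stood at 10.53 and 11.47 in wild-type paraxial tissue, 9.92 and 10.13 in mutant paraxial tissue, 8.88 and 7.27 in wild-type neural tube and 8.09 and 8.38 in mutant neural tube. Chrnd, its delta subunit, stood at 8.93 and 9.99 in wild-type paraxial tissue, 7.58 and 8.36 in mutant paraxial tissue, 7.03 and 7.45 in wild-type neural tube and 6.72 and 7.66 in mutant neural tube. All 3 subunits were called lower in wild-type neural tube, at -2.17 for Chrng, -2.93 for Chrna1 and -2.22 for Chrnd, and none was called in mutants. In paraxial tissue each lay lower on both mutant arrays, Chrnd by -1.49 (SE 0.45, adjusted p = 0.996). Chrnd was above background on 1 of 2 neural tube arrays of each genotype. Chrnd and Chrng lie 9.4 kb apart on chromosome 1.

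Ryr1, the calcium release channel of the sarcoplasmic reticulum, stood at 12.30 and 13.33 in wild-type paraxial tissue, 11.67 and 11.95 in mutant paraxial tissue, 10.97 and 10.21 in wild-type neural tube and 10.71 and 9.73 in mutant neural tube. Casq2, the calcium buffer of that store, stood at 8.15 and 9.29 in wild-type paraxial tissue, 7.24 and 7.87 in mutant paraxial tissue, 6.39 and 7.04 in wild-type neural tube and 6.25 and 6.00 in mutant neural tube. Cav3, the muscle caveolin of the cell membrane, stood at 7.18 and 8.18 in wild-type paraxial tissue, 5.36 and 4.90 in mutant paraxial tissue, 4.75 and 4.16 in wild-type neural tube and 4.91 and 4.85 in mutant neural tube. Ryr1 lay just outside the threshold in wild type (-2.23, SE 0.44, adjusted p = 0.0547) and Casq2 inside it in both genotypes (4.01-fold higher in paraxial tissue in wild type, with 1 of 2 neural tube arrays above background, and at least 1.63-fold in mutants, where neural tube was not above background). On the mutant paraxial arrays Casq2 was above background on 1 of 2. Cav3 was above background on the 2 wild-type paraxial arrays alone, and passed the filter through them. It was at least 2.3-fold higher there than in wild-type neural tube (adjusted p = 0.0114) and at least 1.58-fold higher than in mutant paraxial tissue (adjusted p = 0.996). Sarcolipin (Sln), a regulator of the calcium pump, was at least 11.9-fold higher in paraxial tissue than in neural tube in wild type and at least 5.57-fold in mutants, and was called in both (adjusted p = 0.00964 and 0.0184). Muscle creatine kinase (Ckm) had the smallest called wild-type difference, -1.27 (SE 0.21, adjusted p = 0.0365), with 1 of 2 neural tube arrays above background.

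The number of genes above background was highest on the wild-type paraxial arrays. All but Myl7 were well above background on both wild-type paraxial arrays. On the mutant paraxial arrays 32 and 35 of 39 were, on the wild-type neural tube arrays 29 and 33, and on the mutant neural tube arrays 27 and 32. Over all probes the shares were 77.4% and 73.5% on the wild-type paraxial arrays and 71.5% and 73.1% on the mutant paraxial arrays. They were 77.6% and 77.9% in wild-type neural tube and 73.5% and 74.0% in mutant neural tube. How far the member counts follow these shares was not tested. Myh15, Myl7, Myoz2 and Cav3 were below it on both mutant paraxial arrays. Of the 38 genes that passed the filter, 9 passed through paraxial tissue alone (Ttn, Sln, Chrnd, Ckm, Casq2, Mylpf, Myh15, Myoz2 and Cav3), the last 5 of them through wild-type paraxial tissue alone, and 29 passed through neural tube as well. For 35 of 39 genes the group means ran from wild-type paraxial to mutant paraxial tissue and then to the neural tube groups. RNA of captured tissue is a mixture, so fewer muscle cells and less of each RNA per muscle cell cannot be told apart in any of these differences.

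In neural tube no sarcomere gene was called between genotypes (0% of all genes, with 1050 at an unadjusted p under 0.05 and 0 of the members). The members spread around 0, with 27 lower and 12 higher in mutants and a median of -0.22, against -0.01 over all genes. On 6 genes both mutant arrays lay below both wild-type arrays, where 15.4% of all genes did, and on 4 above, where 16.5% did. The 4 were Tpm2, Actn2, Cav3 and Sln. Cav3 was below background on all neural tube arrays, and Sln likewise, at 5.74 and 4.78 in wild type and 6.32 and 6.62 in mutants.

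The test of whether the genotype difference was unlike in the 2 tissues called 0 of 38 genes and 0 of all 28939, with 8 of the members and 1495 of all genes at an unadjusted p under 0.05. The difference (neural tube minus paraxial tissue) lay above 0 for 36 of 39, with a median of 0.98 against -0.02 over all genes. Of all 28939 genes 13710 lay above 0. The filter fixed the direction of the 5 genes that passed it only through wild-type paraxial tissue. Without them and the untested Myl7 it was 31 of 33, with a median of 0.93, and 5 of the 33 had an unadjusted p under 0.05. Among the members above background on all 8 arrays the largest value was 2.56, for Actn2 (adjusted p = 0.732). Myoz2 and Myh15 (adjusted p = 0.273 for each) and Cav3 (adjusted p = 0.578) had smaller p-values, but no size is given for them, since they were below background in 3 of the 4 groups. Myh15, Myoz2 and Cav3 were called (adjusted p = 0.0318, 0.0318 and 0.0414) without wild-type paraxial replicate 1, and Myh15 and Myoz2 (0.0433 and 0.0348) without wild-type paraxial replicate 2. In those fits the single wild-type paraxial array was assumed to vary like the other groups, and the direction of the 3 genes was fixed by the filter, which they passed through wild-type paraxial tissue alone.

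Where a gene had several probes they gave one direction between the tissues but not one size. The 4 probes of Ttn gave -5.10 to -6.24 in wild type. The second probe of Neb gave -1.03 where the one used gave -3.50, and that of Myh8 -1.68 where the one used gave -3.46. For Smyd1 the second probe, at -1.17, showed a larger difference than the one used, at -0.25, and for Klhl31 the second probe gave -5.29 against -1.67. In paraxial tissue all probes kept, of all 13 genes with 2 or more, lay lower in mutants. In neural tube the probes of Klhl31, Myh6, Myl1, Neb, Ttn and Tnnt3 disagreed in sign between genotypes, so no direction can be given for these 6 there.

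Because most members were called lower in neural tube, the 250 bases before the starts of the members were searched for 3 motifs of muscle promoters, on both strands. These were the E-box, in the form CAGCTG or in the form CACCTG, which reads as CAGGTG from the other strand, bound by the myogenic bHLH factors, the CArG box, bound by serum response factor, and the MEF2 site. RefSeq promoter entries (GRCm38.p6) matched 33 of the 39 genes, of which 29 were called lower over the mean of genotypes and 4 (Myh6, Myl7, Smyd1 and Unc45b) were not. CAGCTG was in the window of 14 of 33 members (42.4%) and of 14.7% of 27025 genes, and CACCTG of 8 (24.2%) and of 19.4%. A CArG box was in 4 of 33 (12.1%: Acta1, Actc1, Ldb3 and Myl7) and in 1.62% of genes. A MEF2 site was in 4 of 33 (12.1%: Casq2, Myh8, Myoz2 and Ttn) and in 3.42% of genes. The stretches below carry these motifs in capitals and belong to genes named above: 2 actins, titin and Myoz2 of the Z disc, and 2 acetylcholine receptor subunits, with the gene's strand read 5′ to 3′.
Acta1, chr8:123894829-123895006, minus strand, 231 to 54 bases before the start: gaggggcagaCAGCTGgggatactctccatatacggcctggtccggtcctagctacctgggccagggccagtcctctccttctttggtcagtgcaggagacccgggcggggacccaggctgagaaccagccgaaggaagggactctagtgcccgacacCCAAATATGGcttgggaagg
Actc1, chr2:114052903-114052932, minus strand, 57 to 28 bases before the start: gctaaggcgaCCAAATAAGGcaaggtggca
Ttn, chr2:76982670-76982723, minus strand, 176 to 123 bases before the start: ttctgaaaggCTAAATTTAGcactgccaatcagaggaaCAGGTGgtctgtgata
Myoz2, chr3:123034988-123035030, minus strand, 43 to 1 bases before the start: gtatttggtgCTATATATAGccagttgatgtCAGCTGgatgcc
Chrna1, chr2:73580367-73580440, minus strand, 102 to 29 bases before the start: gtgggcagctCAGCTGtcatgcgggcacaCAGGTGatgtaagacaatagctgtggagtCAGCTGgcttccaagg
Chrng, chr1:87205646-87205694, plus strand, 165 to 117 bases before the start: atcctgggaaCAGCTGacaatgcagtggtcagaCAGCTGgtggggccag
Acta1 holds 1 CAGCTG and 1 CArG box, Actc1 1 CArG box, Ttn a MEF2 site and a CAGGTG, and Myoz2 a MEF2 site and a CAGCTG. Chrna1 holds 2 CAGCTG and 1 CAGGTG within 74 bases, and Chrng 2 CAGCTG within 49. A match describes the letters of the window, and binding was not measured. Tnnc2, called in both genotypes, held a CACCTG alone, and Myl7, which holds a CArG box, was not above background on any array.

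The set is part of a larger machinery. Of 74 further sarcomere, calcium handling, synapse and muscle energy genes, 73 were on the array and 60 passed the filter. Lower in wild-type neural tube were 15 and higher 0; in mutants 8 were lower and 1 higher, and over the mean of genotypes 24 were lower and 1 higher. Of all genes 1.68%, 3.16% and 6.01% were called lower in these 3 comparisons. How many of the 60 passed the filter only through paraxial tissue was not counted, and the direction of any such gene was fixed. The same holds between genotypes for any that passed only through wild-type paraxial tissue. Of the 73, 61 to 62 were above background on the wild-type paraxial arrays and 56 to 58 on the wild-type neural tube arrays. The median wild-type difference over the 73 was -0.62. The smallest p-values in wild type belonged to fast alpha-actinin Actn3 (-3.30), the receptor subunit Chrnb1 (-2.21), muscle enolase Eno3 (-1.55) and Ankrd2 (-2.19), and in mutants to sarcoglycan Sgca (-3.21), Eno3 (-1.32), Hspb2 (-2.10) and Fhl1, which was higher in neural tube (1.46). Between genotypes in paraxial tissue 0 of 60 were called; 56 of 73 lay lower in mutants, with a median of -0.36. The smallest p-values there were those of the integrin Itga7 (-1.71), Ankrd2 (-1.71), the ubiquitin ligase Trim63 (-1.31) and titin-cap, Tcap (-1.42). Not above background on any array were 8 of the 73, among them the adult fast myosins Myh1, Myh2 and Myh4.

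Markers of other cell types were read beside these differences. Of 15 myogenic regulators 13 passed the filter. In wild-type neural tube 4 were called lower and 0 higher, where 1.68% of all genes were called lower. Those called lower included Myog, Mef2c and Six4. In level 12 of the 15 lay lower there and 3 higher. Over the mean of genotypes 5 were called lower and 1 higher, where 6.01% and 5.94% of all genes were. Myog, which drives terminal muscle differentiation, stood at 9.79 and 11.34 in wild-type paraxial tissue, 8.59 and 9.78 in mutant paraxial tissue, 7.08 and 7.57 in wild-type neural tube and 7.09 and 7.64 in mutant neural tube. It differed by -1.38 (SE 0.59, adjusted p = 0.996) between genotypes in paraxial tissue and was higher on replicate 2 of each paraxial pair. The 15 regulators did not lie to one side: in mutant paraxial tissue 9 lay lower and 6 higher, from -1.64 to 2.68 with a median of -0.48, and in mutant neural tube 5 lay lower and 10 higher, with 0 called in either tissue. Their summed signal was higher in mutant paraxial tissue (291116 to 300250) than in wild-type paraxial tissue (251804 to 265450). In neural tube it was 216143 to 262736 in wild type and 234495 to 273737 in mutants. The sums of the 2 wild-type tissues thus overlapped. Such a sum is weighted to the brightest genes, and 9 of the 15 lay lower in mutant paraxial tissue. Myf5 was above background on 1 of 8 arrays and Myf6 on none. Of 15 heart markers, 4 of which are also in the machinery list above, 8 were above background on all 8 arrays and 5 (Nkx2-5, Gata4, Hand1, Hcn4 and Pln) on none. Single heart markers differed widely between genotypes. In paraxial tissue 8 lay lower in mutants and 7 higher, from -1.65 to 3.98. In neural tube 11 lay lower and 4 higher, from -0.93 to 3.07, with 0 called in either tissue. The summed heart level was 17416 to 20663 in wild-type paraxial tissue, 15379 to 21782 in mutant paraxial tissue, 17654 to 26277 in wild-type neural tube and 20822 to 21126 in mutant neural tube, and all of these ranges overlapped except those of wild-type paraxial tissue and mutant neural tube. Over the 39 sarcomere genes the sums were 381861 to 700043, 226956 to 367910, 99223 to 112069 and 87398 to 92448, in the same order. These sums add the scaled linear signals of 1 probe a gene.

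Several marker lists lay to one side between genotypes in paraxial tissue, with 0 genes called. Surface ectoderm markers lay higher in mutants for 6 of 6, with a median of 1.93, and summed to 20984 to 39471 against 3790 to 9714 in wild type; Cdh1 was below background throughout. Erythroid markers lay higher for 5 of 5 (median 0.84; sums of 410771 to 479694 against 244380 to 282163) and endothelial markers for 5 of 5 (median 0.78; 30222 to 30987 against 19951 to 24123). Neuronal markers lay lower for 9 of 10 (median -1.17), and wild-type paraxial replicate 1 stood apart, with a sum of 123051 against 46640 to 50328 on the other 3 paraxial arrays. Sclerotome markers lay lower for 5 of 7 (median -0.31; 32880 to 39279 against 39032 to 47989) and smooth muscle markers higher for 7 of 8 (median 0.29; 68481 to 73254 against 54220 to 66998), with Lmod1 below background on all arrays. Their part in the lower sarcomere signal of mutant paraxial tissue was not tested. Neural progenitor markers summed to 8775 to 18461 in mutant and 10049 to 14298 in wild-type paraxial tissue, against 41882 to 67958 in the neural tube groups.

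**Figure D4:**
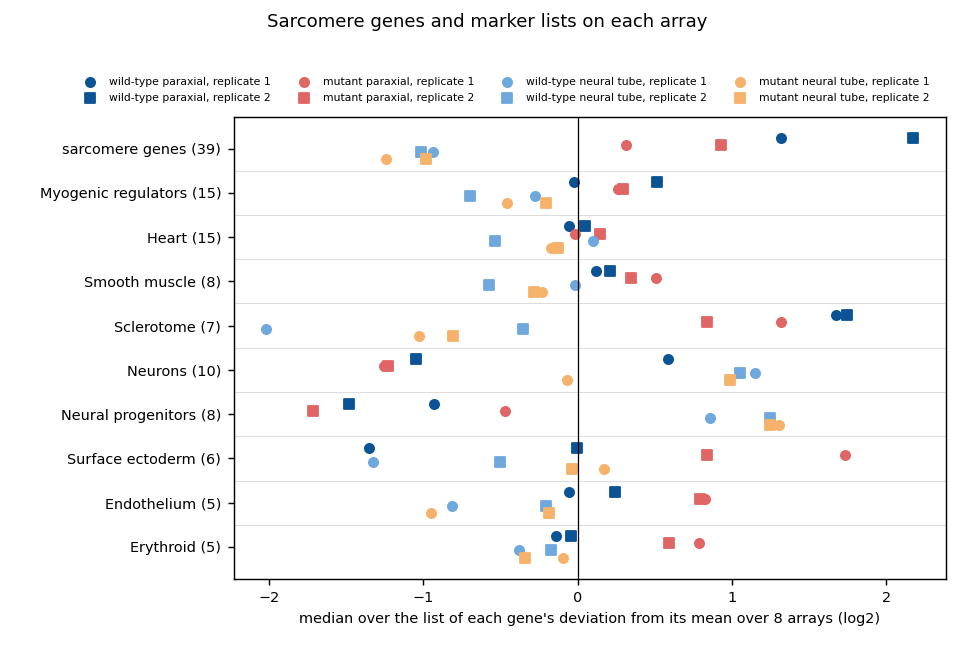
For the 39 sarcomere genes and 9 marker lists (rows, number of genes in brackets), the median over the list of each gene's deviation from its own mean over 8 arrays (log2, x axis), for every array; circles are replicate 1 and squares replicate 2. The sarcomere genes stand at 1.32 and 2.17 in wild-type and 0.31 and 0.92 in mutant paraxial tissue, the heart list stays between -0.54 and 0.14, and the neuronal list is at 0.58 on wild-type paraxial replicate 1.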

How the data were processed

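RNA of laser-captured neural tube and paraxial tissue from 2 wild-type and 2 mutant embryos was hybridised to 8 arrays of 1 slide. The red processed signals are intensity values that the authors deposited as scanner output of Agilent Feature Extraction, version 11.0.1.1 per the submitters' processing notes; the deposited value table differed from them by at most 0.497%. Control and outlier spots were left out, log2 signals were scaled to each array's 75th percentile, and spots of a probe averaged. A probe was kept if well above background on both arrays of a group (42752 of 55664), and the brightest kept probe stood for its gene. Group means were fitted in R 4.3.3 with limma 3.58.1 (eBayes, Benjamini-Hochberg over 28939 genes) with the embryo as random block, since both tissues came from each embryo; deviations correlated at 0.562 in wild-type and 0.607 in mutant embryos, the block's correlation was 0.603, and 4 residual degrees of freedom remained. Replicates of one number correlated at 0.291 across genotypes in each tissue. The wild-type tissue comparison alone was tried on simulated data, with the same spread for every gene. The genotype comparisons were not tried in this way. A bound, written "at least", sets the lit group's mean against the lowest signal well above background on each array of the other group, or against the gene's own signal there where that was higher. An adjusted p beside a bound is that of the fitted difference, not of the bound. Members, lists and tests were chosen with earlier results of these data known. Every member may be named; values per array are given for the 3 brightest in wild-type paraxial tissue and the 3 of smallest p between genotypes there in each role, and for genes whose probes disagree. Gene names are those of the array files, updated through RefSeq by accession (26045 probes) or symbol (3200). Probe positions are mm9, per the file headers, and no annotation of that build was used, so exons and UTRs are not given. One regulator is not reported here.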

Additional observations from a re-analysis of the deposited data

Results flagged for a closer look

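Actn2 was picked out because its mutant values lay on opposite sides of wild type in the 2 tissues. Both mutant paraxial arrays were below both wild-type ones (log2 difference -1.67) and both mutant neural tube arrays were above both wild-type ones (0.89). The difference between these was 2.56, and the limma test of it did not call it (adjusted p = 0.732). Cav3 was picked out for the same reason, with -2.55 in paraxial tissue, 0.43 in neural tube and a difference of 2.98 (adjusted p = 0.578). Cav3 was above background on the 2 wild-type paraxial arrays alone, so its neural tube value compares signals below background, its paraxial value is set against signals below background (at least 1.58-fold lower in mutants), and the size of the difference is not measured. It passed the filter only through wild-type paraxial tissue, which fixed the paraxial direction. Such opposite sides without overlap were seen for 496 of 28939 genes, or 1.71%.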

How the results depend on the processing

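Counts of members called lower in neural tube are given for wild type, mutants and the mean of genotypes, where 29, 18 and 33 were called. With no term for the embryo they were 0, 0 and 23, and with a replicate block of the embryo as a fixed term 10, 10 and 28. With the replicate number as a fixed replicate block they were 24, 17 and 31. The counts thus depended on how embryo and replicate number entered the model. Leaving out 1 array or embryo gave 1 to 33, 0 to 24 and 21 to 35. Quantile, median, cyclic loess and normexp values lay between 25 and 32, 16 and 19, and 33 throughout. Without a filter on dim probes the counts were 22, 14 and 31, and with probes above background on all 8 arrays 21, 15 and 23. No fit called a member between genotypes in either tissue, including every array or embryo left out. For the difference between tissues cyclic loess called 1 (Myh15, 3.15, adjusted p = 0.0477), and the left-out fits called 0 to 3; the filter fixed the direction of Myh15.

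The median member difference between genotypes in paraxial tissue was -1.09, and -1.54 to -0.63 with an array or embryo left out; median scaling, which moved the median of all genes to 0.12, gave -0.999, and normexp -0.88. In neural tube it was -0.22, -0.35 to 0.10 with one left out, and turned to 0.039 under normexp and to 0.10 without mutant neural tube 1 or mutant embryo 1. Of 863 single-gene values for paraxial tissue between genotypes 15 turned sign. With 1 array or embryo left out, Tnni2 ran from -1.06 to 0.62, Tpm2 from -0.73 to 0.12, Ldb3 from -2.32 to 0.098, Sln from -1.58 to 0.13 and Chrna1 from -2.09 to 0.14, each highest without wild-type paraxial replicate 2. Actc1 ran from -1.21 to 0.14, highest without wild-type paraxial replicate 1. Des ran from -0.78 to 0.46 and Ckm from -0.45 to 0.13, highest without wild-type embryo 2, and Trim55 from -0.64 to 0.042, highest without mutant embryo 1. Without wild-type embryo 2, Tnni2 was 0.11 and Tpm2 0.094. Without mutant embryo 2, Tnni2 was 0.11, and without mutant embryo 1, Des was 0.14. Ckm also turned under quantile (0.027) and normexp values (0.11). The cause of these turns was not tested. Fits without an embryo used the correlation of all arrays. The limits are 2 embryos a genotype, all on 1 slide, and genes near background, where a difference is a bound.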
